A study of Mus musculus with 20 samples.

Results

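The secreted Wnt antagonists are 9 genes, *Sfrp1*, *Sfrp2*, *Sfrp4*, *Sfrp5*, *Frzb*, *Dkk1*, *Dkk2*, *Dkk3* and *Wif1*, among the 51826 genes counted. They were taken by name, and 8 of them had at least 5 counts in at least 5 libraries and could be fitted beside the 20407 genes that passed this filter. *Dkk1* did not pass. The set was chosen by the CPM (counts scaled to library size) of *Sfrp1*, known to be low in the WWP2-/- libraries of these data, so the values of *Sfrp1* are given as a description with no test, and the question put to the other members is whether they shared that pattern.

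The cells were primary renal myofibroblasts of C57BL/6J mice that grew out of minced kidney pieces and were harvested at the second passage. WT cells and cells of WWP2-/- littermates were each either left untreated or treated with TGFb1, the cytokine that activates fibroblasts. WWP2 is an E3 ubiquitin ligase, and for this germline knockout the study reports loss of its full-length and N isoforms. There were 5 libraries in each of the 4 groups. The dose and duration of TGFb1 stand in the study's text and not in the labels, and are not repeated here. The study says in general that its data points are mice or cells of single mice, but the labels tie no library to an animal and give no sex, so p-values measure the spread between these libraries only.

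Wnt proteins are secreted glycoproteins that bind Frizzled receptors together with the coreceptors LRP5 and LRP6 and, through the canonical branch, keep beta-catenin from being degraded. The secreted frizzled-related proteins (*Sfrp1*, *Sfrp2*, *Sfrp4*, *Sfrp5* and *Frzb*, also called Sfrp3) carry a cysteine-rich domain like that of the receptors and bind Wnt proteins outside the cell, and *Wif1* binds Wnt proteins through a domain of its own. *Dkk1* and *Dkk2* instead bind LRP5 and LRP6, and *Dkk3* is a divergent member of the Dickkopf family whose part in Wnt signaling is less settled. Wnt signaling and its antagonists are known for roles in nephron development and in kidney fibrosis.

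The region before the start of a gene was held by the RefSeq promoter table (GRCm38.p6) for 6 of the 9 members. The 250 bases upstream of 3 of them are shown, *Dkk2* because it came nearest to the test threshold, and *Sfrp2* and *Sfrp5* because their levels varied together across libraries. They run from 5′ to 3′ on the strand of the gene, and capitals mark matches on either strand to an E-box (CANNTG) or a TATA motif (TATAAA).
Dkk2: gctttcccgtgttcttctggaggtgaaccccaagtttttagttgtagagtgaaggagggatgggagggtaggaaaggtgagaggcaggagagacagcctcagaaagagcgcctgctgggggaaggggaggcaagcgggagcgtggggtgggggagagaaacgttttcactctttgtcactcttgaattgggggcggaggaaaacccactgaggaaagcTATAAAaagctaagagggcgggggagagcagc
Sfrp2: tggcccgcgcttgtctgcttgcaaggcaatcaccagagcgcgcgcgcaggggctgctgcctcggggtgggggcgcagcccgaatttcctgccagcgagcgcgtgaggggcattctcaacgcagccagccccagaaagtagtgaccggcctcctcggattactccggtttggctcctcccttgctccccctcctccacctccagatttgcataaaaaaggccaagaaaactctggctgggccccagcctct
Sfrp5: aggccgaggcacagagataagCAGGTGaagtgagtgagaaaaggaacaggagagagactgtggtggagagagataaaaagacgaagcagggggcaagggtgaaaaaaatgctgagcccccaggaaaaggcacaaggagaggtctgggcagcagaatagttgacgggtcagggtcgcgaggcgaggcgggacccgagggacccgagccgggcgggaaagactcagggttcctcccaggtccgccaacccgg
The *Dkk2* window is chr3:132085042-132085291 on the plus strand, has a GC content of 55.6%, and held 1 TATA motif that begins 32 bases before the start. The *Sfrp2* window is chr3:83766071-83766320 on the plus strand, has a GC content of 63.6% and held neither of these motifs, but held 1 match to the CAGACA form of the SMAD-binding CAGA box. The *Sfrp5* window is chr19:42202253-42202502 on the minus strand, has a GC content of 59.6%, and held 1 E-box that begins 229 bases before the start. Of 27025 promoter windows of this length, 66% held CANNTG, 13% held TATAAA, 17.1% held CAGACA and 3.23% held the TCF/LEF core ATCAAAG, each searched on both strands. None of the 6 members' windows held ATCAAAG. Such matches describe letters and not binding.

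Library totals were 47520759 to 73063697 counts, and the limit that a count of 0 leaves, 3 counts, came to no more than 0.0613 CPM and covers counting error only. *Wwp2*, the targeted gene, was at 53.1 ± 4.14 CPM (SD, n = 5) in untreated WT, 53.5 ± 2.89 in TGFb1-treated WT, 20.5 ± 1.62 in untreated WWP2-/- and 19.01 ± 1.72 in TGFb1-treated WWP2-/- libraries, with no overlap between genotypes. Reads of *Wwp2* thus remained in every WWP2-/- library. The libraries were of unequal kinds within groups. *Xist*, the noncoding RNA of the inactive X chromosome, was above 1 CPM in 4 of 5 untreated WT, 4 of 5 TGFb1-treated WT, 2 of 5 untreated WWP2-/- and 1 of 5 TGFb1-treated WWP2-/- libraries. Of all 20, 6 libraries had *Xist* alone, 9 had Y-linked transcripts alone and 5 had both. The WT libraries that lacked *Xist* were untreated replicate 4 and TGFb1-treated replicate 3. The WWP2-/- libraries with *Xist* alone were untreated replicate 3 and TGFb1-treated replicate 1, and these had 38.9 and 50.4 CPM of *Acta2*, the smooth muscle actin of myofibroblasts, against 1016 to 3430 CPM in the other 18. Each of the 10 fibroblast markers exceeded 3 counts in some library of every group. Their summed level was 7660 to 9052 CPM in those 2 libraries and 14246 to 62811 CPM in the others. A few genes made up most of this sum. Over all 20 libraries *Fn1* had a median of 9556 CPM, whereas *Thy1* had 9.88 CPM and *Lum* 2.87 CPM. *Pdgfra* fell as low as 0.543 CPM and *Lum* as low as 0.0148 CPM. Tubular markers were present too, with a summed level of the 10 genes of 15.6 to 709 CPM. Of these *Cdh16* reached 366 CPM, *Pax8* 195 CPM and *Lrp2* 47.3 CPM, whereas *Slc34a1* never exceeded 2 counts. *Xist* was thus unequally spread over the genotypes, and the fits were repeated without these 4 libraries, a choice made after the data were seen.

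*Sfrp1* ranged from 1.09 to 1023 CPM over the 20 libraries. It lies at chr8:23411502-23449632 (plus strand, GRCm38), 84.0 Mb from *Wwp2* on the same chromosome. In untreated WT libraries, replicates 1 to 5 had 334, 290, 643, 1.97 and 430 CPM. In TGFb1-treated WT libraries they had 736, 872, 9.32, 486 and 1023 CPM. *Sfrp1* was therefore abundant in 8 of the 10 WT libraries and low in the 2 WT libraries that lacked *Xist*. In untreated WWP2-/- libraries the levels were 4.56, 6.72, 2.42, 4.49 and 4.46 CPM, and in TGFb1-treated WWP2-/- libraries 3.07, 3.04, 1.09, 4.46 and 4.80 CPM. All 10 WWP2-/- libraries were low, including the 3 with *Xist*. Of these 3, untreated replicate 3 and TGFb1-treated replicate 1 are the libraries with little *Acta2*. Untreated replicate 1 had 33.7 CPM of *Xist* beside 209 CPM of Y-linked transcripts. The untreated groups overlapped, whereas the TGFb1-treated groups did not, by a margin of 9.32 against 4.80 CPM. The median was 564 CPM in the 8 WT libraries with *Xist* and 4.46 CPM in the 10 WWP2-/- libraries.

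The fitted log2 difference of *Sfrp1* between WWP2-/- and WT was −7.57 (SE 1.19) with TGFb1 and −6.23 (SE 1.12) untreated, and with *Xist* as a covariate it was −6.06 and −4.87. Among libraries with *Xist*, the difference in mean log2 level was −6.91 for 2 untreated WWP2-/- against 4 untreated WT libraries, and −7.92 for 1 against 4 libraries with TGFb1. That TGFb1-treated WWP2-/- library and 1 of the 2 untreated ones had little *Acta2*, and the other untreated one also had Y-linked transcripts. These values therefore do not compare like libraries. Among libraries without *Xist*, the difference was +1.36 for 3 untreated WWP2-/- libraries against 1 WT library, and −1.67 for 4 against 1 with TGFb1. The size of the *Sfrp1* difference thus rested on the WT libraries with *Xist*. In bulk libraries, fewer cells of a type and less RNA per cell cannot be told apart.

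**Figure D1:**
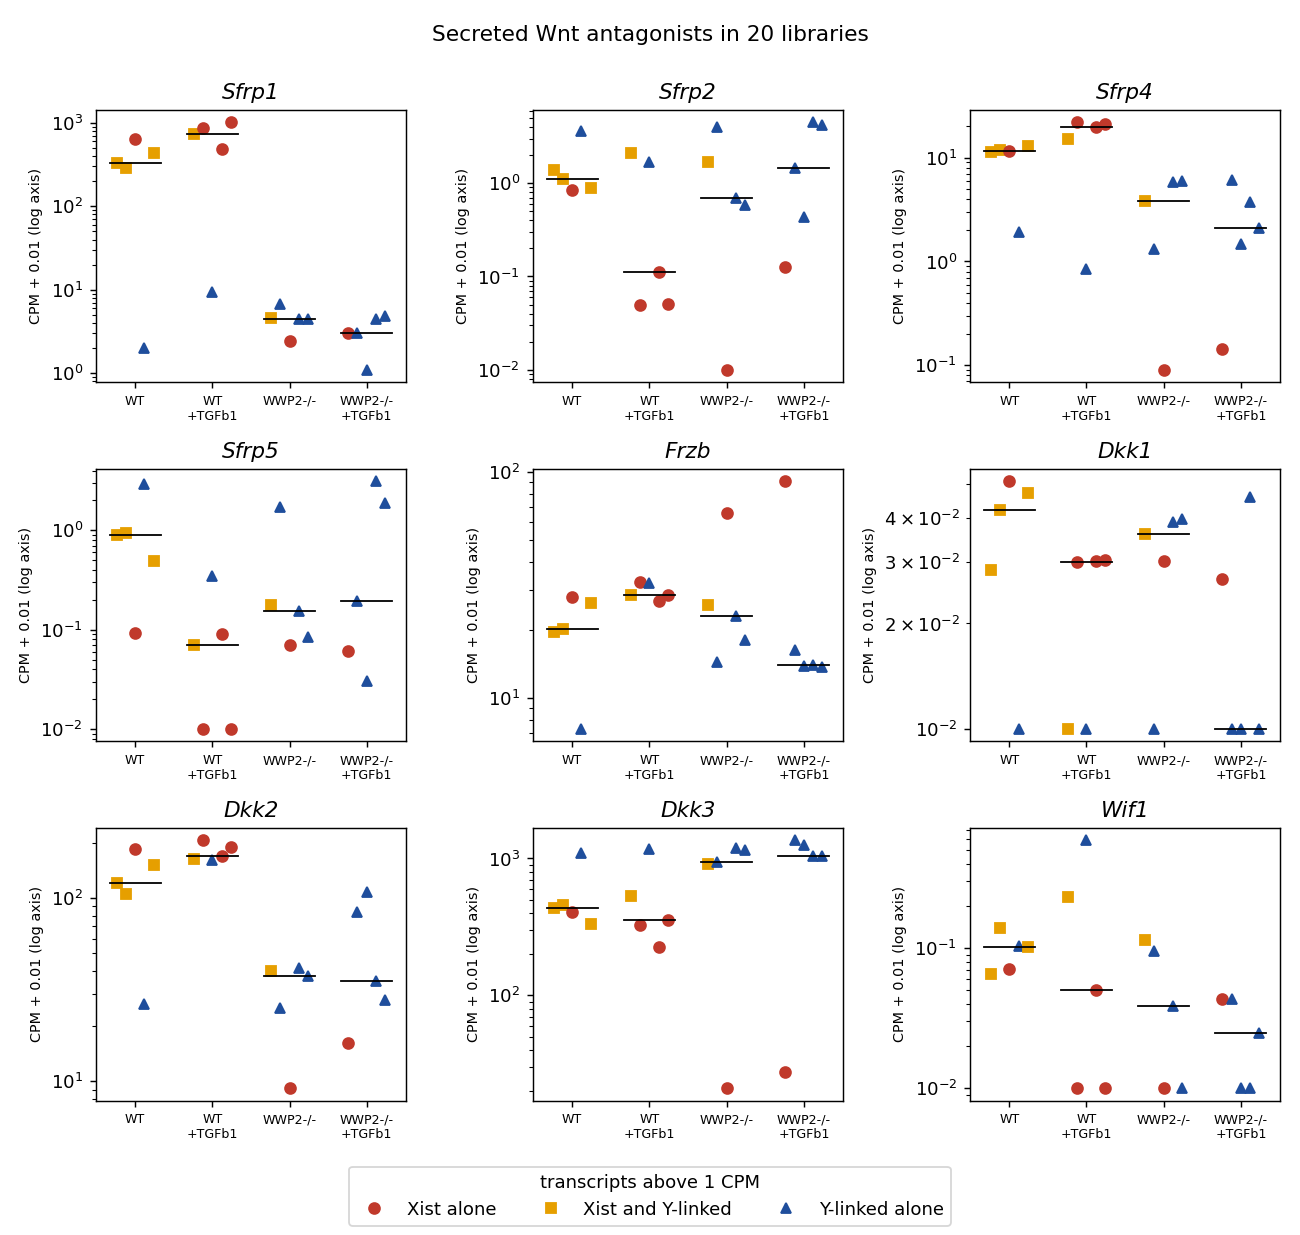
CPM of each of the 9 antagonists (log axis, 0.01 added) in the 20 libraries by group, with 1 point per library, a bar at the group median, and shape and color for libraries with Xist alone, with Y-linked transcripts alone or with both. Sfrp1 was 290 to 1023 CPM in the 8 WT libraries with Xist and 1.09 to 9.32 CPM in the other 12.

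Of the 7 other members tested, none passed an adjusted p of 0.05 in WWP2-/- against WT, by edgeR's quasi-likelihood test with Benjamini–Hochberg adjustment over all genes, either with TGFb1 or untreated. Over all genes, 6.07% were called with TGFb1, of which 3.96% of genes were lower and 2.1% higher, and 0.725% were called untreated, 0.622% lower and 0.103% higher. At an unadjusted p under 0.05, 4 of the 7 members passed with TGFb1, where 24.7% of all genes did. *Sfrp4*, *Dkk2* and *Wif1*, the last at no more than 29 counts, were lower in WWP2-/-, and *Sfrp5* was higher. Untreated, 1 member passed, *Dkk2*, which was lower, where 14.9% of all genes did. The Wald test of DESeq2 called 3 members with TGFb1, *Dkk2* and *Sfrp4* lower and *Sfrp5* higher in WWP2-/-, where it called 13.1% of all genes, and 1 untreated, *Dkk2* lower, where it called 3.64%. The 2 genotype comparisons share no library, but they come from 1 fit with a common estimate of the spread. As the labels tie no library to an animal, treated and untreated libraries may share animals, so the 2 comparisons are not independent.

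**Figure D2:**
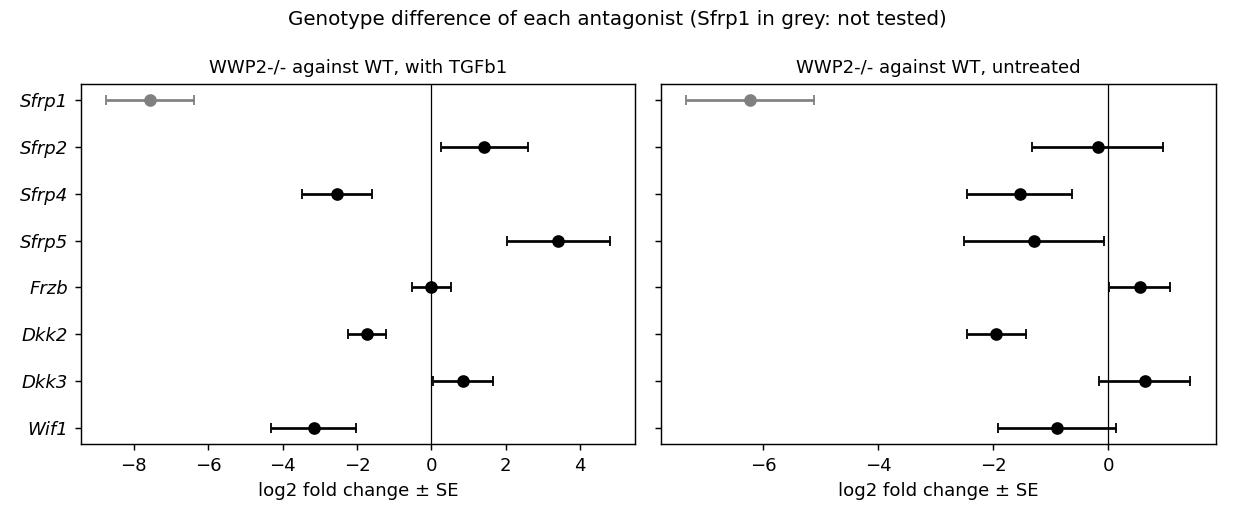
Fitted log2 fold change (points) with its SE (bars) of WWP2-/- against WT for the 8 antagonists fitted, with TGFb1 (left) and untreated (right), and 5 libraries per group. Sfrp1 (grey, not tested) was at −7.57 and −6.23, and Dkk2 had the smallest SE of the others in both comparisons, 0.512 and 0.515.

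*Dkk2*, an antagonist that acts on the LRP5 and LRP6 coreceptors, was 1 of 2 members near *Sfrp1* in pattern. It lies at chr3:132085292-132180304 (plus strand). Its levels were 121, 106, 185, 26.3 and 151 CPM in untreated WT replicates 1 to 5, and 163, 206, 162, 170 and 189 CPM in TGFb1-treated WT replicates. They were 39.8, 25.0, 9.14, 41.3 and 37.7 CPM in untreated WWP2-/- and 16.2, 83.5, 108, 35.2 and 27.9 CPM in TGFb1-treated WWP2-/- libraries. With TGFb1 every WWP2-/- library was below every WT library, the only one of the 7 tested members without overlap, a separation seen in 5.67% of all genes and in this direction in 3.08%. The untreated groups overlapped through WT replicate 4, the same library in which *Sfrp1* was low. The log2 fold change was −1.72 (SE 0.512, adjusted p = 0.0531) with TGFb1 and −1.94 (SE 0.515, adjusted p = 0.0908) untreated.

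Unlike *Sfrp1*, *Dkk2* was as abundant in the TGFb1-treated WT library without *Xist* (162 CPM) as in the other 4 of that group (163 to 206 CPM). Within libraries that lacked *Xist*, the difference in mean log2 level was −1.57 with TGFb1 (4 against 1 library) and +0.36 untreated (3 against 1). With *Xist* as a covariate the fold changes were −1.98 (adjusted p = 0.0997) and −2.16 (adjusted p = 0.108). *Dkk2* passed the threshold without the 2 WT libraries that lacked *Xist* (adjusted p = 0.0204 with TGFb1 and 0.00950 untreated). In these comparisons 16.2% and 5.41% of all genes were called. The untreated library left out held the lowest *Dkk2* of all WT libraries, 26.3 CPM. *Dkk2* also passed with TGFb1 without the 2 WWP2-/- libraries with *Xist* alone (adjusted p = 0.0350, 16.9% of all genes called). In those 2 libraries *Dkk2* was lowest, at 9.14 and 16.2 CPM. Across libraries the level of *Dkk2* had a Pearson correlation of 0.843 with the summed fibroblast markers, a sum in which *Fn1* had the highest median (9556 CPM). The part of cell makeup in the *Dkk2* difference was not tested.

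*Sfrp4*, a Wnt-binding antagonist at chr13:19623104-19632994 (plus strand), was the other member near *Sfrp1* in pattern. It had 11.3, 11.7, 11.6, 1.91 and 13.0 CPM in untreated WT and 15.1, 22.0, 0.838, 19.5 and 21.2 CPM in TGFb1-treated WT replicates 1 to 5. In WWP2-/- libraries it had 3.81, 1.31, 0.0805, 5.88 and 5.93 CPM untreated and 0.135, 6.09, 1.45, 3.72 and 2.09 CPM with TGFb1. The 8 WT libraries with *Xist* (11.3 to 22.0 CPM) lay above all other libraries, and the 2 WT libraries without it lay among the WWP2-/- libraries, the same division as for *Sfrp1*. The groups overlapped in both comparisons because of those 2 libraries.

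The log2 fold change of *Sfrp4* was −2.54 (SE 0.944, adjusted p = 0.108) with TGFb1 and −1.54 (SE 0.912, adjusted p = 0.435) untreated. Among libraries without *Xist* it went the other way, at +1.74 on the log2 scale with TGFb1 and +0.90 untreated, each against 1 WT library. Among those with *Xist* it was −6.83 with TGFb1, where the single WWP2-/- library is one of the 2 that stand apart, and −4.17 untreated. Without the 2 WT libraries that lacked *Xist*, *Sfrp4* passed with TGFb1 (−2.85, adjusted p = 0.0305), where 16.2% of all genes were called. The TGFb1-treated library left out held the only low value of its group, 0.838 CPM, so this call is no separate support. The 2 lowest *Sfrp4* levels, 0.0805 and 0.135 CPM, were in the WWP2-/- libraries with *Xist* alone. The other 8 WWP2-/- libraries were at 1.31 to 6.09 CPM.

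*Dkk3*, the most abundant member per kilobase of exon with a median of 214 RPKM over the 20 libraries, did not share the pattern of *Sfrp1*. It lies at chr7:112116017-112159057 (minus strand). In WT libraries *Dkk3* had 433, 454, 404, 1097 and 334 CPM untreated and 530, 326, 1173, 227 and 358 CPM with TGFb1. The 2 WT libraries that lacked *Xist* were the highest of their groups, the reverse of their order in *Sfrp1*. In WWP2-/- libraries *Dkk3* had 910, 939, 21.0, 1189 and 1160 CPM untreated and 27.4, 1353, 1262, 1039 and 1037 CPM with TGFb1. The other 8 WWP2-/- libraries (910 to 1353 CPM) held the level of the WT libraries without *Xist*, and the 2 with *Xist* alone were far lower.

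The log2 fold change of *Dkk3* was 0.85 (SE 0.799, adjusted p = 0.546) with TGFb1 and 0.63 (SE 0.796, adjusted p = 0.735) untreated. Among libraries without *Xist* the difference between genotypes was −0.011 with TGFb1 and −0.00942 untreated on the log2 scale, with 1 WT library in each. With *Xist* as a covariate the fitted values turned to −0.99 and −0.53. *Dkk3* had a Pearson correlation over 20 libraries of −0.703 with *Xist*, 0.936 with the summed smooth muscle markers and 0.938 with the summed markers of mesangial cells and pericytes. The 2 low *Dkk3* libraries had 105 and 119 CPM of summed smooth muscle markers against 1256 to 4400 CPM in the other 18, and correlations over libraries that form separate clusters largely restate such gaps.

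*Frzb*, a Wnt-binding antagonist at chr2:80411970-80447625 (minus strand), had 19.4, 20.1, 27.9, 7.25 and 26.1 CPM in untreated WT and 28.5, 32.5, 32.2, 26.7 and 28.5 CPM in TGFb1-treated WT libraries. In WWP2-/- libraries it had 25.8, 14.4, 65.9, 23.0 and 18.1 CPM untreated and 90.7, 16.3, 13.8, 13.9 and 13.7 CPM with TGFb1. The lowest *Frzb* of all 20, 7.25 CPM, was in untreated WT replicate 4, where *Sfrp1* was also low. The 2 WWP2-/- libraries with *Xist* alone had the highest *Frzb* of all 20, opposite to their place in *Dkk3*. With TGFb1 the 2 genotypes overlapped in *Frzb*. The remaining 4 TGFb1-treated WWP2-/- libraries had 13.7 to 16.3 CPM, and the 5 TGFb1-treated WT libraries 26.7 to 32.5 CPM. That division appears only with the highest library set aside after its value was seen. The share of all genes divided in this way was not counted, so the division is not read as a result about *Frzb*.

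With all libraries, the log2 fold change of *Frzb* was −0.000786 (SE 0.528, adjusted p = 0.999) with TGFb1 and 0.54 (SE 0.530, adjusted p = 0.651) untreated. Across the 20 libraries *Frzb* and *Dkk3* had a Pearson correlation of −0.827, the furthest from 0 of any pair of members fitted.

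*Sfrp2* and *Sfrp5* were both scarce and varied together, with a Pearson correlation of 0.788. *Sfrp2* (chr3:83766321-83774316, plus strand) had 1.38, 1.09, 0.838, 3.65 and 0.887 CPM in untreated WT and 2.12, 0.0401, 1.66, 0.101 and 0.0408 CPM in TGFb1-treated WT libraries. It had 1.66, 3.99, 0, 0.679 and 0.578 CPM in untreated WWP2-/- and 0.118, 1.43, 0.424, 4.51 and 4.15 CPM in TGFb1-treated WWP2-/- libraries. The groups overlapped throughout, and the log2 fold changes between genotypes were 1.42 (SE 1.17, adjusted p = 0.480) with TGFb1 and −0.18 (SE 1.14, adjusted p = 0.951) untreated. The antisense gene *Gm26771* overlaps *Sfrp2*, and as the strand setting of the counting is not given in the sources used here, reads of the 2 genes cannot be told apart.

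*Sfrp5* (chr19:42197971-42202252, minus strand) had 0.882, 0.932, 0.0818, 2.90 and 0.480 CPM in untreated WT and 0.0605, 0, 0.339, 0.0808 and 0 CPM in TGFb1-treated WT libraries. It had 0.169, 1.69, 0.0604, 0.144 and 0.0741 CPM in untreated WWP2-/- and 0.0505, 0.183, 0.0202, 3.11 and 1.89 CPM in TGFb1-treated WWP2-/- libraries. At most 187 counts stood behind any of these values, and 14 of 20 libraries exceeded 3 counts. The log2 fold change was 3.42 (SE 1.38, adjusted p = 0.135) with TGFb1 and −1.29 (SE 1.22, adjusted p = 0.639) untreated.

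The 4 libraries with the highest *Sfrp5* were untreated WT replicate 4, untreated WWP2-/- replicate 2 and TGFb1-treated WWP2-/- replicates 4 and 5. The same 4 libraries had the highest *Sfrp2*, and their summed level of the 10 macrophage markers was 4001, 1769, 3538 and 2554 CPM, above the 62.7 to 1144 CPM of the other 16. All 10 macrophage markers were counted in every group, with summed levels of 154 to 4001 CPM in untreated WT, 62.7 to 443 CPM in TGFb1-treated WT, 75.5 to 1769 CPM in untreated WWP2-/- and 71.3 to 3538 CPM in TGFb1-treated WWP2-/- libraries. Among the macrophage markers *Lyz2* had the highest median over the 20 libraries, 344 CPM, and *Cx3cr1* the lowest, 0.976 CPM. Over the 20 libraries the Pearson correlation with the summed macrophage markers was 0.921 for *Sfrp5* and 0.839 for *Sfrp2*. Summed tubular markers moved similarly, at 0.756 for *Sfrp5* and 0.849 for *Sfrp2*. Their summed levels were 33.4 to 422 CPM in untreated WT, 36.8 to 200.5 CPM in TGFb1-treated WT, 16.2 to 709 CPM in untreated WWP2-/- and 15.6 to 548 CPM in TGFb1-treated WWP2-/- libraries. Over the 20 libraries *Cdh16* had a median of 77.5 CPM, *Pax8* of 77.2 CPM and *Lrp2* of 25.2 CPM, while *Slc34a1* and *Umod* had medians of 0. The part of these cells in either gene was not tested.

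*Wif1* (chr10:121033960-121100650, plus strand) exceeded 3 counts in 7 of 20 libraries and never exceeded 29 counts. Its levels were 0.0552 to 0.129 CPM in untreated WT, 0 to 0.579 CPM in TGFb1-treated WT, 0 to 0.104 CPM in untreated WWP2-/- and 0 to 0.0337 CPM in TGFb1-treated WWP2-/- libraries. The fitted log2 change of −3.16 with TGFb1 (SE 1.14, adjusted p = 0.0996) is no bound at such low counts, and was −1.83 without the TGFb1-treated WT replicate 3, which had 29 counts. All 5 TGFb1-treated WWP2-/- libraries were at or below 2 counts. The untreated value was −0.89 (SE 1.02, adjusted p = 0.707). *Dkk1* (chr19:30545863-30549665, minus strand) had at most 2 counts in any library and 0 in 7 libraries, so its message was not detectable above the floor at this depth.

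Leaving out whole libraries changed which members were called. Without the 2 WT libraries that lacked *Xist*, *Sfrp4* and *Dkk2* were called lower with TGFb1 (16.2% of all genes called), and *Dkk2* was called lower untreated (5.41%). Without the 2 WWP2-/- libraries with *Xist* alone, *Sfrp4* (−2.24, adjusted p = 0.0486) and *Dkk2* were called lower with TGFb1 (16.9%). *Frzb* was also called lower there (−1.05, adjusted p = 0.0207). The TGFb1-treated library left out held the highest *Frzb* of its group, 90.7 CPM against 13.7 to 16.3 CPM in the others. With all libraries the *Frzb* value was −0.000786 (adjusted p = 0.999). Calls of *Frzb* in fits without that library are therefore not read as a result about *Frzb*. No member was called untreated (1.32%). Without all 4 libraries, 5 of the 7 members were called with TGFb1, where 31.9% of all genes were. *Sfrp4*, *Dkk2* and *Frzb* were then lower, *Dkk3* was higher by 1.70 on the log2 scale (adjusted p = 4.31e-05), and *Sfrp5* was higher by 5.11 (adjusted p = 0.0190). Untreated, *Sfrp4* and *Dkk2* were then lower and *Dkk3* higher (1.32, adjusted p = 0.000770), with 14.1% of all genes called. In that last setting all 8 WT libraries had *Xist* and 7 of the 8 WWP2-/- libraries did not, so genotype and *Xist* cannot be told apart. Leaving out either set of 2 libraries also brought genotype and *Xist* closer to coinciding than in the main fit.

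On the per-length scale, the order of the medians over all 20 libraries was *Dkk3* (214 RPKM), *Dkk2* (25.5), *Frzb* (7.53), *Sfrp4* (1.41), *Sfrp1* (1.32), *Sfrp2* (0.460), *Sfrp5* (0.0824), *Wif1* (0.0153) and *Dkk1* (0.00828). The ranges of neighbours in this order overlapped from library to library. In the 8 WT libraries with *Xist*, *Sfrp1* had a median of 129 RPKM, beside 113 RPKM for *Dkk3* in the same libraries.

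TGFb1 treatment gave no call for any tested member in either genotype, by edgeR or DESeq2, and edgeR called 0 of all 20407 genes (0%) in WT, in WWP2-/- and for the interaction of genotype and treatment. At an unadjusted p under 0.05, 1397 genes (6.85%) passed in WT, 713 (3.49%) in WWP2-/- and 1424 (6.98%) for the interaction, and DESeq2 called 27, 49 and 10. *Sfrp1* differed by 0.88 on the log2 scale in treated against untreated WT and by −0.46 in WWP2-/-, as a description. *Dkk2* differed by 0.60 (SE 0.499, adjusted p = 0.905) in WT and by 0.82 (SE 0.501, adjusted p = 0.99995) in WWP2-/-. The only member with an unadjusted p under 0.05 was *Sfrp5*, at −3.43 in WT (SE 1.38, adjusted p = 0.651) and 4.72 for the interaction (SE 1.84, adjusted p = 0.588). The summed macrophage markers had medians of 851 CPM untreated and 138 CPM treated in WT, and 488 and 957 CPM in WWP2-/-.

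Likeness to *Sfrp1* was measured as the Pearson correlation of log2 CPM over the 20 libraries. *Dkk2* (0.768) and *Sfrp4* (0.751) stood apart from the other members, which had 0.203 (*Frzb*), 0.165 (*Wif1*), −0.156 (*Dkk3*), −0.249 (*Sfrp2*) and −0.267 (*Sfrp5*). Such values were not rare, since 5.1% of the 20406 other genes were more like *Sfrp1* than *Dkk2* was, and 5.58% more than *Sfrp4*. With the mean of each group removed, the correlation was 0.603 for *Sfrp4* and 0.441 for *Dkk2*. *Xist* itself correlated with *Sfrp1* at 0.728, and at 0.589 with group means removed. The libraries fall into separate clusters in *Sfrp1*, so these values describe that division.

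**Figure D3:**
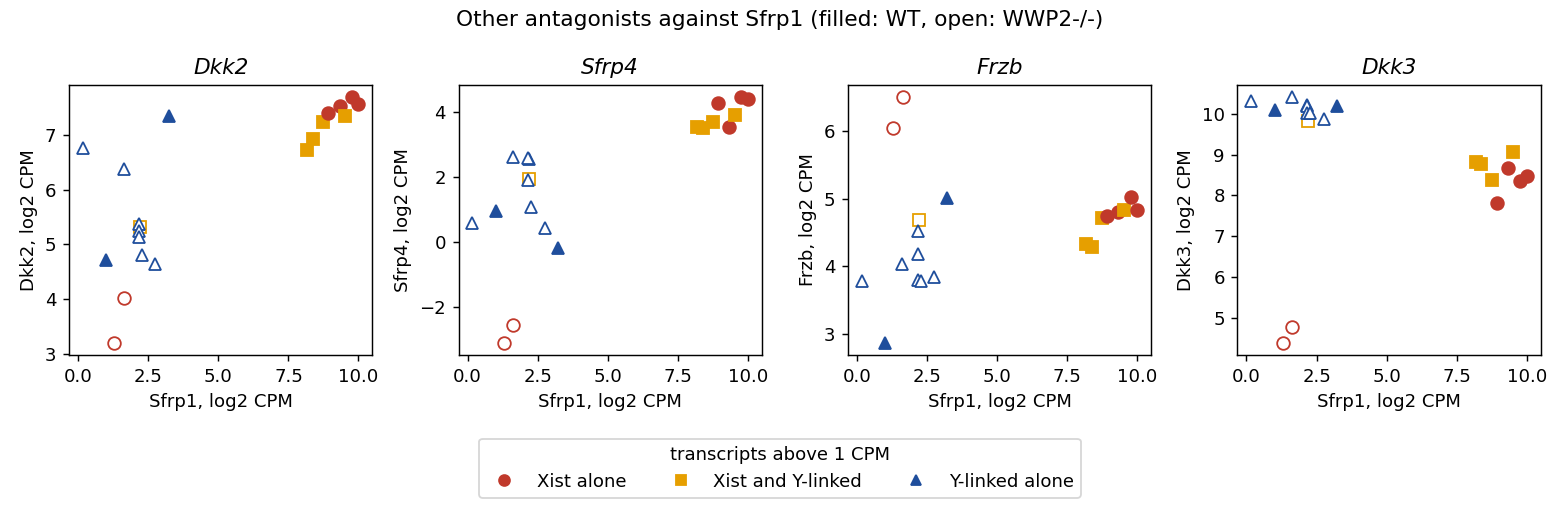
Level of Dkk2, Sfrp4, Frzb and Dkk3 against that of Sfrp1 (log2 CPM, both axes) with 1 point per library, filled for WT and open for WWP2-/-, and shape and color by Xist and Y-linked transcripts. The 8 WT libraries with Xist lie at the right in each panel, and only in Sfrp4 do they lie above all 12 others.

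The genes most like *Sfrp1* among the 13518 with a mean of at least 1 CPM were *Col28a1* (0.992), a collagen gene, *A730020M07Rik* (0.984), *Tnmd* (0.980), which encodes the tendon protein tenomodulin, *Cpxm2* (0.976) and *Scara3* (0.976). The same 5 led with group means removed. *Col28a1* had 18.0 to 63.4 CPM in the 8 WT libraries with *Xist* and 0.242 to 0.998 CPM in the other 12. *Scara3* had 53.1 to 104 CPM in the former and 0.202 to 2.31 CPM in the latter. None of the other antagonists showed a gap of that size.

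**Figure D4:**
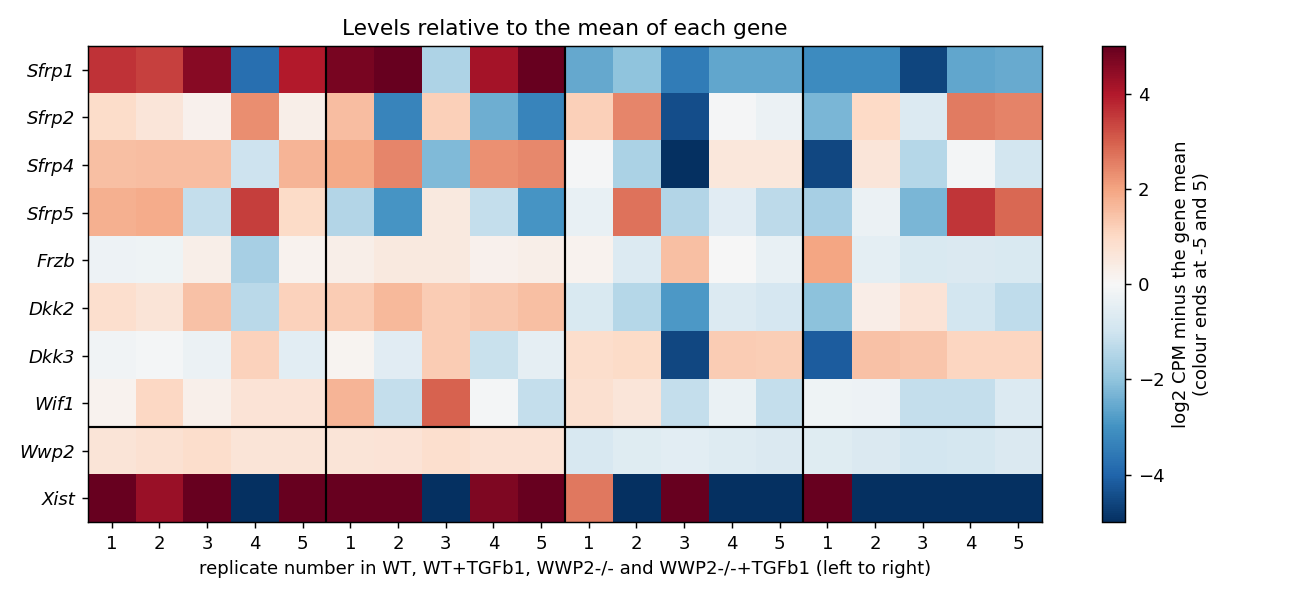
Level of the 8 antagonists fitted, Wwp2 and Xist in each library, as log2 CPM minus the mean of the gene (color scale from −5 to 5), with libraries in columns by group and replicate. Sfrp4, Dkk2 and Frzb share a low untreated WT replicate 4 with Sfrp1, and Dkk3 and Frzb stand apart in untreated WWP2-/- replicate 3 and TGFb1-treated WWP2-/- replicate 1.

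The other genes of the Wnt pathway were described from 5 lists of 82 genes, of which 71 were tested. With TGFb1, 14 of the 71 (19.7%) were called in WWP2-/- against WT, 1 higher and 13 lower, against 6.07% of all genes. The receptors held 7 of these calls among 17 genes, and the median log2 fold change of this list was −0.65 against 0.05 over all genes tested. In this list 6 genes fell, with *Fzd1*, *Fzd8*, *Fzd2* and *Lrp5* first by adjusted p, and 1 rose, *Fzd9*, which is named after its value was seen. *Fzd1*, a Frizzled receptor, ranged from 167 to 309 CPM in WT and from 44.3 to 93.5 CPM in WWP2-/- libraries with TGFb1 (log2 fold change −1.75, SE 0.358, adjusted p = 0.0124). *Lrp5*, a coreceptor that DKK1 and DKK2 bind, changed by −0.65 (SE 0.161, adjusted p = 0.0251).

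Among other extracellular modulators, *Igfbp4* (−2.92, SE 0.631, adjusted p = 0.0141) and *Rspo2* (−4.16, SE 0.926, adjusted p = 0.0158) fell, 2 of 10 tested genes, and the median of the list was −0.16. *Rspo2* encodes an R-spondin, which strengthens Wnt signaling, whereas *Igfbp4* encodes an IGF-binding protein that can also antagonize Wnt receptors. Of 13 ligands 1 was called (7.69%, near the 6.07% of all genes), *Wnt6* (−2.40, SE 0.684, adjusted p = 0.0451), and the list median was 0.08. *Wnt6* was not called without a filter, with only the groups compared, with the replicate block or without the 2 WT libraries that lacked *Xist*, 1 of which held its highest level, 2.53 CPM. Of 16 genes of signal transduction, *Tcf7l1*, *Tcf7l2* and *Pygo1*, which act with beta-catenin in the nucleus, fell, by 1.19, 0.61 and 1.13 on the log2 scale (list median −0.18). Of 15 target genes 1 was called (6.67%), *Nkd1*, a feedback inhibitor of the pathway, which fell (−4.32, SE 0.875, adjusted p = 0.0121), and the median was −0.05. The widely used target *Axin2* was at 0.39 (adjusted p = 0.732).

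In untreated cells 5 of the 71 genes (7.04%) were called, against 0.725% of all genes, and all were lower: *Fzd1* (−1.63), *Igfbp4* (−2.996), *Rspo2* (−4.06), *Pygo1* (−1.27) and *Nkd1* (−4.34). No gene of the lists was called for TGFb1 treatment or for the interaction. Several of these genes also divided the WT libraries by *Xist*. *Nkd1* had 16.6 to 56.8 CPM in the 8 WT libraries with *Xist*, 2.20 and 4.83 CPM in the 2 without and 0.185 to 3.97 CPM in WWP2-/- libraries. *Igfbp4* had 29.6 to 63.3, 11.3 to 13.5 and 1.11 to 10.1 CPM in the same order. With *Xist* as a covariate, 4 genes of the lists were called with TGFb1 and none untreated. Of the 14 genes called before, 2 stayed called (*Wnt6* and *Fzd8*) and 12 did not, among them *Fzd1*, *Fzd2*, *Lrp5*, *Igfbp4*, *Rspo2*, *Tcf7l1*, *Tcf7l2*, *Pygo1* and *Nkd1*. The other 2 calls were *Wnt5b* and *Notum*, named after their values were seen.

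**Figure D5:**
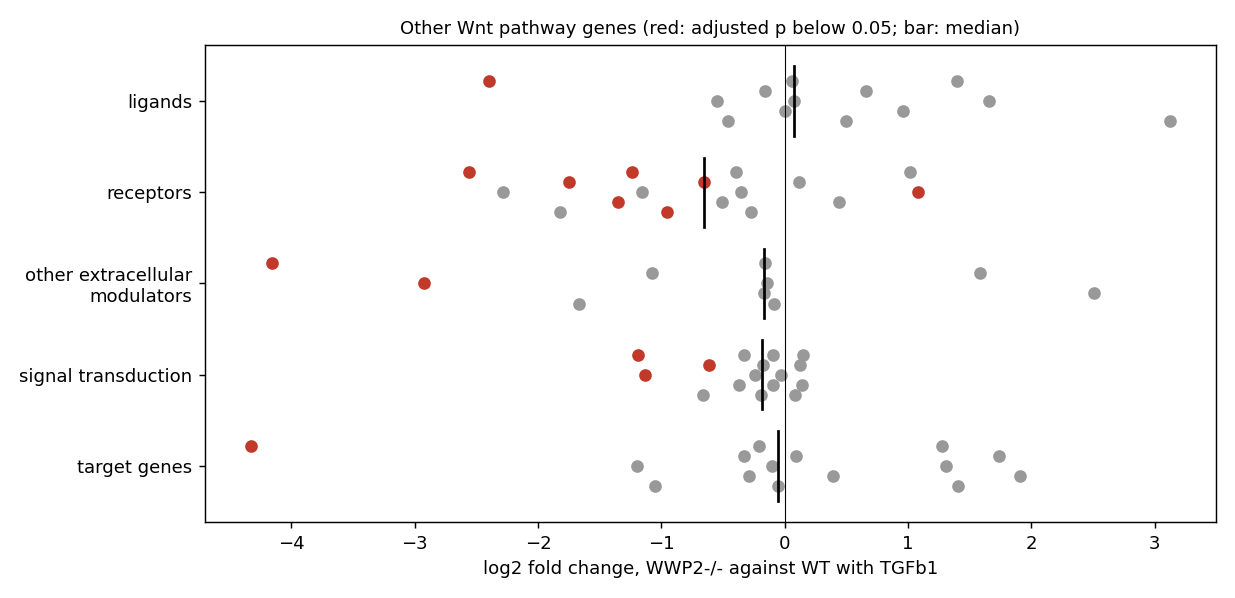
Log2 fold change of WWP2-/- against WT with TGFb1 for the 71 other Wnt pathway genes tested, in 5 rows by list, with 1 point per gene, red for an adjusted p below 0.05, and a bar at the list median. The receptors lie furthest to the left, with a median of −0.65, and 13 of the 14 red points are below 0.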

How the data were processed

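RNA of cultured renal myofibroblasts was sequenced by the authors after poly-A selection (NovaSeq, paired-end). Per the labels and the study's methods, the authors aligned reads to GRCm38 (mm10) with STAR and deposited counts per gene, made by featureCounts over exons of read pairs, with no normalization. The strand setting is not given in the sources used here. All 20 columns were matched to samples by name, and no 2 libraries were identical.

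Gene names and exon models came from GENCODE M21, which names 20356 of the 20407 genes tested. Genes that reached 5 counts in 5 or more libraries were normalized by TMM and fitted in 1 model of 4 groups with edgeR 4.0.16 (glmQLFit, glmQLFTest; R 4.3.3), and p-values were adjusted by the Benjamini–Hochberg method over all genes tested, with a threshold of 0.05. CPM use the TMM library size, RPKM divide CPM by exon length, and log2 CPM for correlations use a prior count of 2. SE values are the log2 fold change over the square root of F. The procedure was tested on simulated data.

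Members and lists were chosen with earlier results of these data known, so they carry no independent support. Named genes are the members, *Wwp2*, *Xist*, up to 4 called genes per Wnt list by smallest adjusted p, list genes named for their level, and the 5 genes most like *Sfrp1*. Alternatives were DESeq2 1.42.0 (size factors, Wald test), other filters, a fit of only the groups compared, replicate blocks, *Xist* as a covariate, a threshold of 0.01, and each library left out in turn. The sets of 2 or 4 libraries left out were chosen after seeing the data.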

Additional observations from a re-analysis of the deposited data

Results flagged for a closer look

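In 9 of the 31 groups of a member with more than 3 counts, 1 of the 5 libraries stood apart by Dixon's criterion. Its nominal rate of about 1 in 20 holds for independent, normally distributed values. The groups share the same 20 libraries and CPM were not log-transformed, so the 9 are not set against that rate. Of the 9, 4 were in the WT libraries without *Xist*. In untreated WT replicate 4, *Sfrp2* was at 3.65 CPM against 0.838 to 1.38 CPM in the others, *Sfrp4* at 1.91 CPM against 11.3 to 13.0 CPM, and *Dkk3* at 1097 CPM against 334 to 454 CPM. In TGFb1-treated WT replicate 3, *Sfrp5* was at 0.339 CPM against 0 to 0.0808 CPM.

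Another 4 were in the WWP2-/- libraries with *Xist* alone. *Frzb* was at 65.9 CPM in untreated replicate 3 against 14.4 to 25.8 CPM in the others, and at 90.7 CPM in TGFb1-treated replicate 1 against 13.7 to 16.3 CPM. *Dkk3* was at 21.0 CPM in the former library against 910 to 1189 CPM, and at 27.4 CPM in the latter against 1037 to 1353 CPM. The last is untreated WWP2-/- replicate 2, in which *Sfrp5* was at 1.69 CPM against 0.0604 to 0.169 CPM, and whose summed macrophage markers were the highest of its group at 1769 CPM.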

How the results depend on the processing

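No tested member was called in the main fit, with other size factors, other filters, only the groups compared, *Xist* as a covariate, a threshold of 0.01 or a replicate block. *Dkk2* and *Sfrp4* were lower in WWP2-/- in every refit that held them. Within libraries without *Xist*, against 1 WT library each, *Sfrp4* was instead higher by 1.74 (TGFb1) and 0.90 (untreated) on the log2 scale, and *Dkk2* by 0.36 untreated. A filter of 10 counts in every library left 3 of the 7, *Frzb*, *Dkk2* and *Dkk3*, and dropped *Sfrp4*. Members called with TGFb1 numbered 3 by DESeq2, 2 without the 2 WT libraries that lack *Xist*, 3 without the 2 WWP2-/- libraries with *Xist* alone and 5 without these 4, and untreated 1, 1, 0 and 3. Leaving out 1 library gave 0 to 2 with TGFb1 (*Dkk2* without untreated WT replicate 4, untreated WWP2-/- replicate 3 or TGFb1-treated WWP2-/- replicate 3, *Dkk2* and *Sfrp4* without TGFb1-treated WT replicate 3) and 0 to 1 untreated (*Dkk2* without WT replicate 4). The share of all genes called in each of these fits is not given here, so these counts are not read as a result about the members.

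Wnt list calls with TGFb1, 14 in the main fit, were 9 with only the groups compared, 4 with *Xist* as a covariate (2 of them among the 14), 27 without the 2 WWP2-/- libraries, 36 without the 4, 0 at a threshold of 0.01, and 9 (without TGFb1-treated WT replicate 1 or 5 or TGFb1-treated WWP2-/- replicate 4) to 20 (without TGFb1-treated WT replicate 3) with 1 library left out. Untreated calls, 5 in the main fit, were 0 with only the groups compared, with *Xist* and at 0.01, 10 without the 2 WT libraries, 26 without the 4, and 0 (without any of 7 of the 10 untreated libraries, WT replicates 1, 3 and 5 among them) to 8 (without WT replicate 4). The share of all genes called with 1 library left out is not given here, and the cause was not tested. Over all genes, the 1238 calls with TGFb1 and 148 untreated were 2672 and 743 by DESeq2, 569 and 1 with only the groups compared, 544 and 84 with *Xist*, 101 and 1 at 0.01, and 790 with TGFb1 without a filter.

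Replicate numbers were not taken to pair the libraries, since no pair of groups had every same-numbered correlation of deviations over 0.1. It was over 0.1 for 4 of 5 numbers between untreated WT and WWP2-/- (−0.0213 to 0.443, 3 of 5 libraries closest to their own number), 3 between WWP2-/- groups (−0.185 to 0.283), 2 between WT groups (−0.522 to 0.299) and 1 between TGFb1-treated genotypes (−0.417 to 0.126). With the replicate block no member was called, Wnt list calls were 11 with TGFb1 and 0 untreated, and calls over all genes were 670 and 1 against 1238 and 148.

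Signs turned only for uncalled values, on the log2 scale. With TGFb1 between genotypes these were *Sfrp2* −0.21 and *Dkk3* −0.99 with *Xist* as a covariate, and *Frzb* 0.00146 without a filter, 0.00518 with only the groups compared, 0.36 with *Xist* and 0.0350 without the 2 WT libraries (−1.05 to 0.18 with 1 library left out). Untreated, they were *Sfrp2* 0.35, 0.11 and 0.67 without the 2 WT, the 2 WWP2-/- and the 4 libraries (−1.13 to 0.40 with 1 left out), *Frzb* −0.0183 and −0.25 without the 2 WWP2-/- and the 4, and *Dkk3* −0.53 with *Xist*. For TGFb1 in WT, they were *Dkk3* 0.0224 with the replicate block (−0.60 to 0.36 with 1 left out) and *Wif1* −0.13 with the block within genotype and −0.39 without the 2 WT or the 4 libraries (−0.39 to 1.26). In WWP2-/-, they were *Frzb* −0.17 with the replicate block, −0.29 with the block within genotype, −0.49 and −0.48 without the 2 WWP2-/- and the 4 libraries (−1.02 to 0.55), and *Dkk3* −0.54 with *Xist* (−0.15 to 0.48). For the interaction, they were *Dkk2* −0.0667 and −0.25 with the 2 blocks (−0.17 to 0.49) and *Dkk3* −0.00248 with the replicate block and −0.46 with *Xist* (−0.20 to 0.76). By Spearman's rho the likeness to *Sfrp1* was 0.450 for *Frzb* and −0.468 for *Dkk3*. At 0 to 29 counts, *Wif1* and *Dkk1* are limited by depth.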
